A study of Mus musculus with 6 samples.

Results

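The genes described here build the machinery by which a vesicle docks at a membrane and fuses with it. They were measured by RNA sequencing in neutrophils sorted as CD45+ CD11b+ Ly6G+ cells from the marrow of femurs and tibiae of 8-week-old male C57BL/6 wild-type mice. Ctrl mice were unligated, and Lig mice had silk tied around the second molars of both jaws for 14 days to induce periodontitis, with 3 libraries in each group. Neutrophils of 5 mice were pooled for each library. The labels name no sham procedure for Ctrl, so handling and gum inflammation cannot be told apart. Members were all protein-coding rows of the deposited table whose symbol begins with Stx, Vamp, Snap, Stxbp, Syt or Sytl followed by a digit, with Unc13, or with Exoc followed by a digit. This rule gave 72 of 55401 genes. Of these, 31 had a mean of at least 1 FPKM (fragments per kilobase of transcript, scaled to sequencing depth) over the 6 libraries and were tested, 24 lay under this level with a value above 0, and 17 were listed at 0 in every library.

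SNARE proteins sit on vesicles and on target membranes and zip together into a bundle that draws both membranes into one. Sec1/Munc18 proteins guide this assembly, Munc13 proteins and Rab27 effectors tether and prime the vesicle, synaptotagmins sense calcium, and the exocyst is a complex that holds secretory vesicles at the plasma membrane. Neutrophils carry preformed granules and secretory vesicles, and release of their content relies on this machinery. In humans, loss of *STX11*, *STXBP2*, *UNC13D* or *RAB27A* impairs the release of cytotoxic granules and causes inherited haemophagocytic syndromes.

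Marrow neutrophils held 1 dominant member in most families, and the synaptic genes *Stx1a*, *Snap25*, *Unc13a* and *Syt1* were scarce or listed at 0, while *Vamp2*, which also serves synapses, was abundant. Between Lig and Ctrl the machinery changed little. Of the 31 tested members, *Exoc1* and *Vamp3* rose in Lig and none fell (edgeR quasi-likelihood test, Benjamini-Hochberg adjusted p under 0.05 over 9632 genes), beside 3.96% of all genes called higher and 6.43% called lower. Both calls were lost in most of the fits without 1 library, in which 278 to 694 of all genes passed in place of 1000. DESeq2 called 9 of 31 members higher (29%), beside 7.78% of all genes, and 0 lower, beside 10.3%. By contrast, limma on log2(FPKM + 1) called 0 members, beside 1.71% of all genes called higher and 7.26% called lower. In 24 of 31 members the fold change was positive, beside 49.8% of all genes. With other scalings between libraries, given below, it was as few as 16 of 31, beside 25.1% of all genes. The largest fold change of any tested member, on the log2 scale, was 0.62, for *Stx18*, and did not pass.

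Promoter sequences are shown for 2 abundant members and for 1 of the members that rose, to place the levels beside the DNA from which these genes are read. Of the 31 tested members, 28 had an entry among the RefSeq promoters (GRCm38.p6, 250 bases before to 50 after a start site), and for each the window nearest to the start of the gene in the deposited table was taken. This window lay within 499 bases of that start for 26 genes, but 29539 bases away for *Exoc6* and 17514 for *Stx4a*. These short motifs were searched on both strands: the GC box GGGCGG, the interferon regulatory factor core AANNGAAA, the PU.1 site GAGGAAGT, the C/EBP site TTGCNNAA, the E-box TCACGTGA of lysosomal genes and the TATA box TATAAA. Capitals mark every match, and the strand is that of the gene.
Stx11, chr10:12964210-12964509, minus strand: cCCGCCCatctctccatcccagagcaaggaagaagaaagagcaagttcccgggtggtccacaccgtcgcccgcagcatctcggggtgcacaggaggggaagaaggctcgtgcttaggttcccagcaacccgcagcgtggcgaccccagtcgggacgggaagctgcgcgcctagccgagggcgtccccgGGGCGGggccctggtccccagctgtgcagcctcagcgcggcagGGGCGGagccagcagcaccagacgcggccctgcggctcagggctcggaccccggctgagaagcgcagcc
Vamp8, chr6:72390618-72390917, minus strand: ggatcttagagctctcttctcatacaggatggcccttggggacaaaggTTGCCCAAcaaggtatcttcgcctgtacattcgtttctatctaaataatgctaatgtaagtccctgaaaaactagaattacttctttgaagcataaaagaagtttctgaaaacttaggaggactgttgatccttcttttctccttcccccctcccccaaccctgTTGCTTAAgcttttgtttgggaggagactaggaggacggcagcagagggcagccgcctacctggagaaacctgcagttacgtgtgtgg
Exoc1, chr5:76529061-76529360, plus strand: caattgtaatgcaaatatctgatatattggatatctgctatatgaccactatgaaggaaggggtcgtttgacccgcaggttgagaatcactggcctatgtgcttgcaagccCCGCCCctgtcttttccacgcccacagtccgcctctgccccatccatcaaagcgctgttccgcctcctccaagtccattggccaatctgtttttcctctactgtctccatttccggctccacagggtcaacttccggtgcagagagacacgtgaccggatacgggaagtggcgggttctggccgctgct

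The *Stx11* window held 3 GC boxes and 71% G and C, the *Exoc1* window held 1 GC box and 53.7% G and C, and the *Vamp8* window held 2 C/EBP sites, no GC box and 46.7% G and C. GC boxes lay in 19 of the 28 windows (67.9%), beside 35.6% of the 32817 promoters in the table. Without the distant windows of *Exoc6* and *Stx4a*, which held 5 and 3 GC boxes, it was 17 of 26 (65.4%). C/EBP sites lay in 4 of 28 windows (14.3%, beside 10.8%), interferon regulatory factor cores in 5 (17.9%, beside 23.9%), PU.1 sites in 1 (3.57%, beside 3.2%) and lysosomal E-boxes in 1 (3.57%, beside 0.975%). The TATA box was in 0 of 28 windows, beside 13.6% of promoters. The 32817 promoters are all distinct windows, of genes expressed here or not, while the 28 are 1 window per tested member. The shares are thus not of like sets, and expressed genes alone were not compared. Matches of different motifs may overlap, and a match describes the letters of a window, not a bound site.

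**Figure D1:**
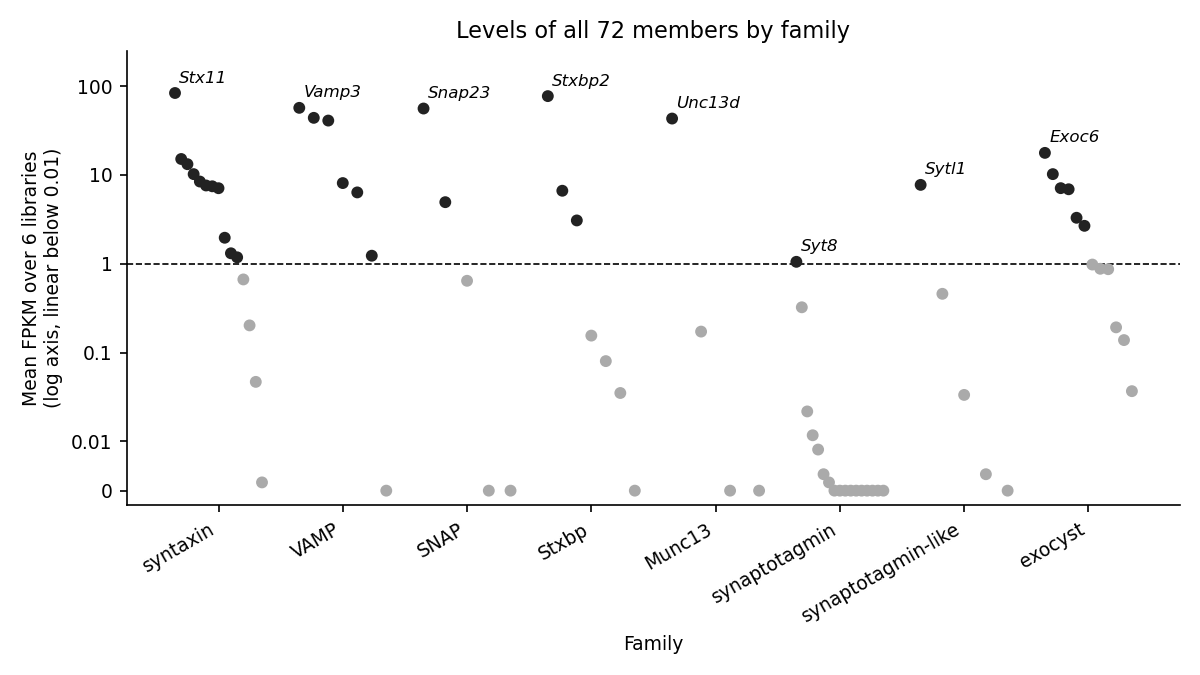
Each point is 1 of the 72 members, placed by family on the x axis and by its mean FPKM over the 6 libraries on the y axis, a log axis that turns linear below 0.01. Black points lie at or above 1 FPKM (dashed line) and were tested, grey points were not, the leading gene of each family is named, and 10 of 17 synaptotagmin genes sit at 0.

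The most abundant member was *Stx11*, a syntaxin without a membrane-spanning segment that works at the surface of secretory immune cells (chromosome 10, 12938209 to 12964262, minus strand, GRCm38). It stood at 82.25, 90.59 and 86.64 FPKM in the Ctrl libraries and at 88.34, 73.64 and 79.87 in the Lig libraries. The groups overlapped, and on the log2 scale Lig differed from Ctrl by -0.03 ± 0.08 (fold change ± SE, here and below, adjusted p = 0.864). *Stx11* led all members in 5 of 6 libraries, and in replicate 2 of Lig it came second to *Stxbp2*. It held 49.1% to 55.7% of the summed FPKM of the 15 syntaxins. Its promoter, printed above, was the most GC-rich of the 3 shown.

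*Stxbp2* encodes Munc18-2, the Sec1/Munc18 partner of Stx11 (chromosome 8, 3630955 to 3643644, plus strand). Its values were 74.49, 73.00 and 75.45 FPKM in Ctrl and 76.85, 83.07 and 79.84 in Lig. Every Lig library lay above every Ctrl library, but the difference was small, at 0.18 ± 0.05, and missed the threshold (adjusted p = 0.0568). *Stxbp3*, which encodes Munc18c, a partner of Stx4, was far scarcer on the same per-length scale, at 3.08 ± 0.168 FPKM in Ctrl and 3.07 ± 0.155 in Lig (SD, n = 3). A processed pseudogene of it exists, with which reads may be shared. *Stxbp5*, the gene of the fusion inhibitor tomosyn, had 6.43 ± 0.24 FPKM in Ctrl and 6.83 ± 0.32 in Lig (log2 fold change 0.16 ± 0.06, adjusted p = 0.155). *Stxbp2* held 88% to 89.3% of the FPKM of its family.

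*Unc13d* encodes Munc13-4, the priming factor that binds Rab27a on granules (chromosome 11, 116062095 to 116077961, minus strand). It stood at 43.00, 39.99 and 41.61 FPKM in Ctrl and at 42.44, 44.38 and 47.46 in Lig. The groups overlapped in 1 Ctrl and 1 Lig library, and the log2 fold change was 0.18 ± 0.06 (adjusted p = 0.0809). *Unc13d* made up 99.3% to 99.8% of the FPKM of its family. *Unc13a*, a priming factor of synapses, had 0.08 to 0.29 FPKM, and *Unc13b* and *Unc13c* were listed at 0 in every library.

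*Vamp3*, the gene of cellubrevin, a vesicle SNARE of recycling endosomes, was the abundant member that rose (chromosome 4, 151047300 to 151057953, minus strand). Its values were 51.04, 55.82 and 53.49 FPKM in Ctrl and 62.42, 59.99 and 58.73 in Lig. All Lig libraries lay above all Ctrl libraries, with means of 53.4 ± 2.39 and 60.4 ± 1.88 FPKM (SD, n = 3). The log2 fold change was 0.25 ± 0.06 (edgeR, adjusted p = 0.0492). The call was close to the threshold: without 1 library the adjusted p was 0.043 to 0.133 and passed only without replicate 2 of Ctrl, and limma on log2(FPKM + 1) gave 0.0892.

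The other vesicle SNAREs did not pass. *Vamp2*, the synaptobrevin that in human neutrophils marks secretory vesicles and specific granules, had 42.39, 43.47 and 43.50 FPKM in Ctrl and 40.99, 49.71 and 43.33 in Lig. Replicate 2 of Lig was its highest library and replicate 1 of Lig its lowest, so the groups overlapped (0.12 ± 0.08, adjusted p = 0.335). *Vamp8*, the gene of endobrevin, a granule SNARE of many secretory cells, had 40.32, 37.97 and 39.02 FPKM in Ctrl and 44.93, 39.85 and 43.46 in Lig. Only replicate 2 of Lig fell within the Ctrl range, and the log2 fold change was 0.20 ± 0.06 (adjusted p = 0.0859). *Vamp4*, which serves the trans-Golgi network, had 6.5 to 9.52 FPKM over the 6 libraries, *Vamp5* 5.68 to 7.6 and the neuronal *Vamp1* 1.01 to 1.35, each with overlapping groups. *Vamp5* lies near *Vamp8* on the same strand of chromosome 6. *Vamp9* was listed at 0, and *Vamp1* overlaps *Tapbpl* on the opposite strand, so that its few reads may be mixed with those of that gene.

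*Snap23* is the plasma membrane SNARE that takes the place of neuronal SNAP-25 outside the nervous system (chromosome 2, 120567671 to 120601255, plus strand). It stood at 52.56, 59.40 and 52.66 FPKM in Ctrl and at 58.81, 56.21 and 55.84 in Lig. Replicate 2 of Ctrl was the highest of the 6 libraries, and the difference did not pass (0.13 ± 0.07, adjusted p = 0.292). *Snap23* held 90.4% to 91.6% of its family, while *Snap25* was listed at 0 in every library. *Snap29*, which acts on endosomes and autophagosomes, averaged 4.68 ± 0.276 FPKM without and 5.19 ± 0.589 with ligatures (0.22 ± 0.12, adjusted p = 0.258). It overlaps *Pi4ka* on the opposite strand. *Snap47* lay at 0.47 to 0.96 FPKM under the filter, and *Snap91*, which the symbol rule takes in although it encodes a clathrin adaptor and no SNARE, was listed at 0.

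**Figure D2:**
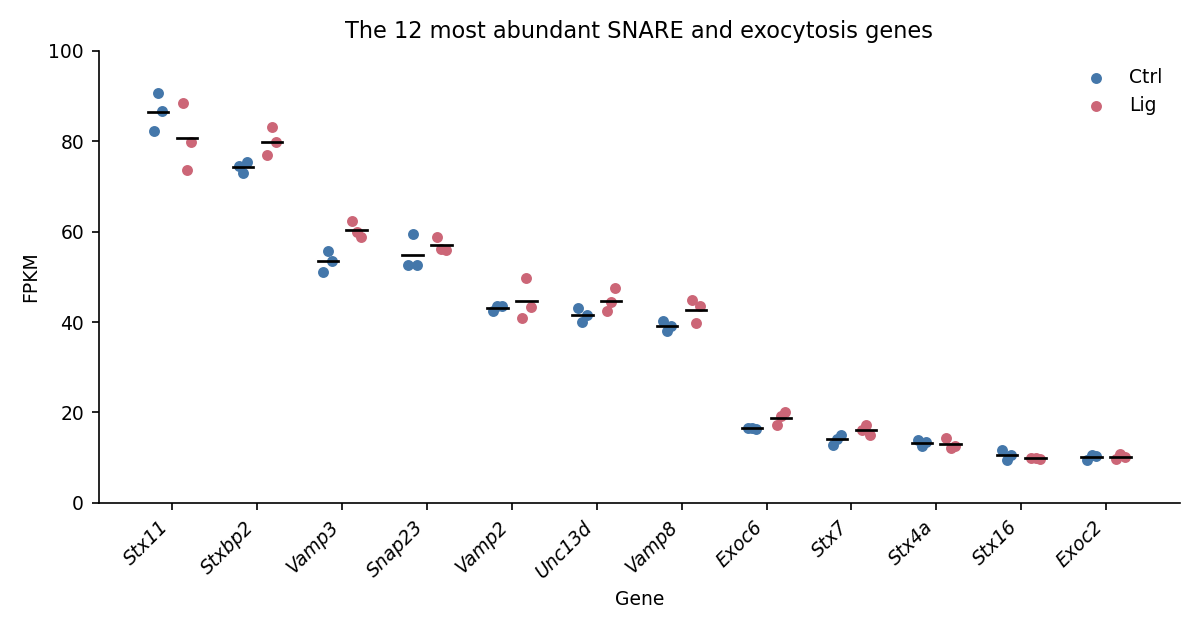
FPKM (y axis) of the 12 members with the highest mean over the 6 libraries (x axis), with 1 point per library, Ctrl in blue and Lig in red, and a black line at each group mean. *Vamp3* and *Stxbp2* show Lig points above all Ctrl points, while the points of *Stx11*, *Snap23* and *Vamp2* mix.

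A few members accounted for most of the machinery in every library. These 8 were *Stx11*, *Stxbp2*, *Vamp3*, *Snap23*, *Vamp2*, *Unc13d*, *Vamp8* and *Exoc6*, which together made up 72.9% to 74.4% of the FPKM summed over all 72 members. The summed FPKM was 548 to 564 in Ctrl and 576 to 581 in Lig. The FPKM summed over all genes was also higher in Lig, and the members made up 0.161% to 0.168% of it in Ctrl and 0.161% to 0.163% in Lig. At least 40 FPKM was reached by 7 members, 10 to 40 FPKM by 5 and less than 10 FPKM by the other 19 tested.

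The remaining syntaxins act mostly inside the cell, and none of them passed. *Stx7*, a SNARE of late endosomes, had 12.82, 14.13 and 15.12 FPKM in Ctrl and 16.12, 17.15 and 15.03 in Lig (0.27 ± 0.09, adjusted p = 0.0867). Replicate 3 of Lig lay just under replicate 3 of Ctrl. *Stx4a*, a plasma membrane syntaxin, had 13.98, 12.57 and 13.41 FPKM in Ctrl and 14.26, 12.22 and 12.68 in Lig (0.05 ± 0.08, adjusted p = 0.761), with its highest and lowest value both in Lig. *Stx16*, of the trans-Golgi network, had 11.59, 9.47 and 10.67 FPKM in Ctrl and 9.88, 9.83 and 9.79 in Lig (-0.03 ± 0.08, adjusted p = 0.842), and the Lig values lay within the Ctrl range.

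*Stx17*, the syntaxin of autophagosomes, averaged 7.17 ± 0.0872 FPKM among Ctrl and 7.71 ± 0.141 among Lig libraries. Its groups did not overlap, but the log2 fold change of 0.18 ± 0.06 missed the threshold (adjusted p = 0.0844). *Stx12* (syntaxin 13 of recycling endosomes) went the other way, at 9.4 ± 1.72 and 7.45 ± 0.28 FPKM (-0.26 ± 0.15, adjusted p = 0.282), and replicate 1 of Ctrl lay among the Lig libraries. The Golgi syntaxin *Stx5a* had 7.34 ± 1.51 FPKM in Ctrl and 7.87 ± 1.06 in Lig, and the plasma membrane syntaxin *Stx2* 6.9 ± 0.524 and 7.27 ± 0.06. *Stx18*, of the endoplasmic reticulum, had 1.28 to 1.76 FPKM in 5 libraries and 3.51 in replicate 2 of Lig, so that its fold change of 0.62 ± 0.30 (adjusted p = 0.226) rested on 1 library. *Stx8* and *Stx6*, which pair with other endosomal SNAREs, stood at 1.01 to 1.44 and 0.59 to 1.58 FPKM. *Stx3*, a plasma membrane syntaxin of granulocytes and epithelia, was below the filter at 0.56 to 0.81 FPKM.

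Of 6 tested exocyst genes, 1 rose in Lig and 5 did not pass, beside 3.96% of all genes called higher. *Exoc1* encodes the Sec3 subunit (chromosome 5, 76529311 to 76570294, plus strand). It stood at 3.22, 2.79 and 3.06 FPKM in Ctrl and at 3.49, 3.74 and 3.41 in Lig. All Lig libraries lay above all Ctrl libraries, and the log2 fold change was 0.31 ± 0.07 (edgeR, adjusted p = 0.0401). The call was lost in each of the 6 fits without 1 library, where the adjusted p was 0.0696 to 0.121, and limma on log2(FPKM + 1) gave 0.18.

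*Exoc6*, the Sec15 subunit, was the most abundant subunit, and its mouse mutant is known for impaired iron uptake in red cell precursors. Its values were 16.59, 16.63 and 16.26 FPKM in Ctrl and 17.28, 19.15 and 20.19 in Lig. The 3 Ctrl values lay close together and under all Lig values, and the change of 0.27 ± 0.07 just missed the threshold (adjusted p = 0.0520). *Exoc7*, the Exo70 subunit that binds membrane lipids, had 6.24, 6.29 and 6.53 FPKM in Ctrl and 6.63, 7.78 and 7.87 in Lig (0.30 ± 0.09, adjusted p = 0.0687). *Exoc3* (Sec6) had 6.53, 7.08 and 6.34 FPKM in Ctrl and 7.18, 7.32 and 8.09 in Lig (0.25 ± 0.08, adjusted p = 0.0875). In both genes the groups did not overlap.

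*Exoc2* (Sec5), a target of the GTPase RalA, had 9.59, 10.66 and 10.34 FPKM in Ctrl and 9.66, 10.75 and 10.22 in Lig, and the groups mixed (0.07 ± 0.07, adjusted p = 0.548). *Exoc5* (Sec10) had 2.92, 2.66 and 3.03 FPKM in Ctrl and 2.27, 2.52 and 2.63 in Lig. Its Lig libraries all lay below the Ctrl libraries, with a log2 fold change of -0.14 ± 0.08 (adjusted p = 0.283). *Exoc5* overlaps the annotated gene *Gm49204* on the same strand, so reads may be shared. *Exoc8* and *Exoc4* completed the octamer just under the filter, at 0.69 to 1.22 and 0.71 to 1.04 FPKM, and the paralog *Exoc6b* lay at 0.73 to 1.03.

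The synaptotagmins, the family of calcium sensors, were scarce, and 1 synaptotagmin-like gene was abundant enough to test. Of 17 synaptotagmins, *Syt8* alone reached the filter, with 1.23, 1.18 and 1.18 FPKM in Ctrl and 0.90, 0.96 and 0.83 in Lig. Its Lig libraries all lay lower, but at these levels the change of -0.33 ± 0.18 did not pass (adjusted p = 0.263). *Syt11* had 0.21 to 0.4 FPKM, and *Syt1*, *Syt4*, *Syt5*, *Syt7*, *Syt9*, *Syt10*, *Syt13*, *Syt14*, *Syt16* and *Syt17* were listed at 0 in every library. *Sytl1*, a Rab27a effector of neutrophil granules, had 7.77, 8.94 and 8.50 FPKM in Ctrl and 6.50, 7.39 and 7.22 in Lig. The groups did not overlap, and the change of -0.18 ± 0.10 did not pass (adjusted p = 0.28). *Sytl1* held 92% to 96.8% of the FPKM of the 5 synaptotagmin-like genes, *Sytl3* had 0.21 to 0.71 FPKM, *Sytl2* and *Sytl4* at most 0.06, and *Sytl5* was listed at 0.

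Among the other members under the filter, values were too low to compare firmly. *Stx1a*, a syntaxin of synapses, had 0.31, 0.31 and 0.30 FPKM in Ctrl and 0.06, 0.15 and 0.08 in Lig, which did not overlap, and in a fit without a filter its adjusted p was 0.122. *Exoc3l4* had 0.02, 0.09 and 0.11 FPKM in Ctrl and was listed at 0 in all Lig libraries (adjusted p = 0.0559 without a filter). *Exoc3l* had 0.01 to 0.29 FPKM and *Exoc3l2* 0.13 to 0.27. *Stxbp6*, *Stxbp4*, *Stx19*, *Syt2*, *Syt3*, *Syt6*, *Syt12* and *Syt15* stayed at or below 0.14 FPKM, and *Stxbp5l* was listed at 0.

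**Figure D3:**
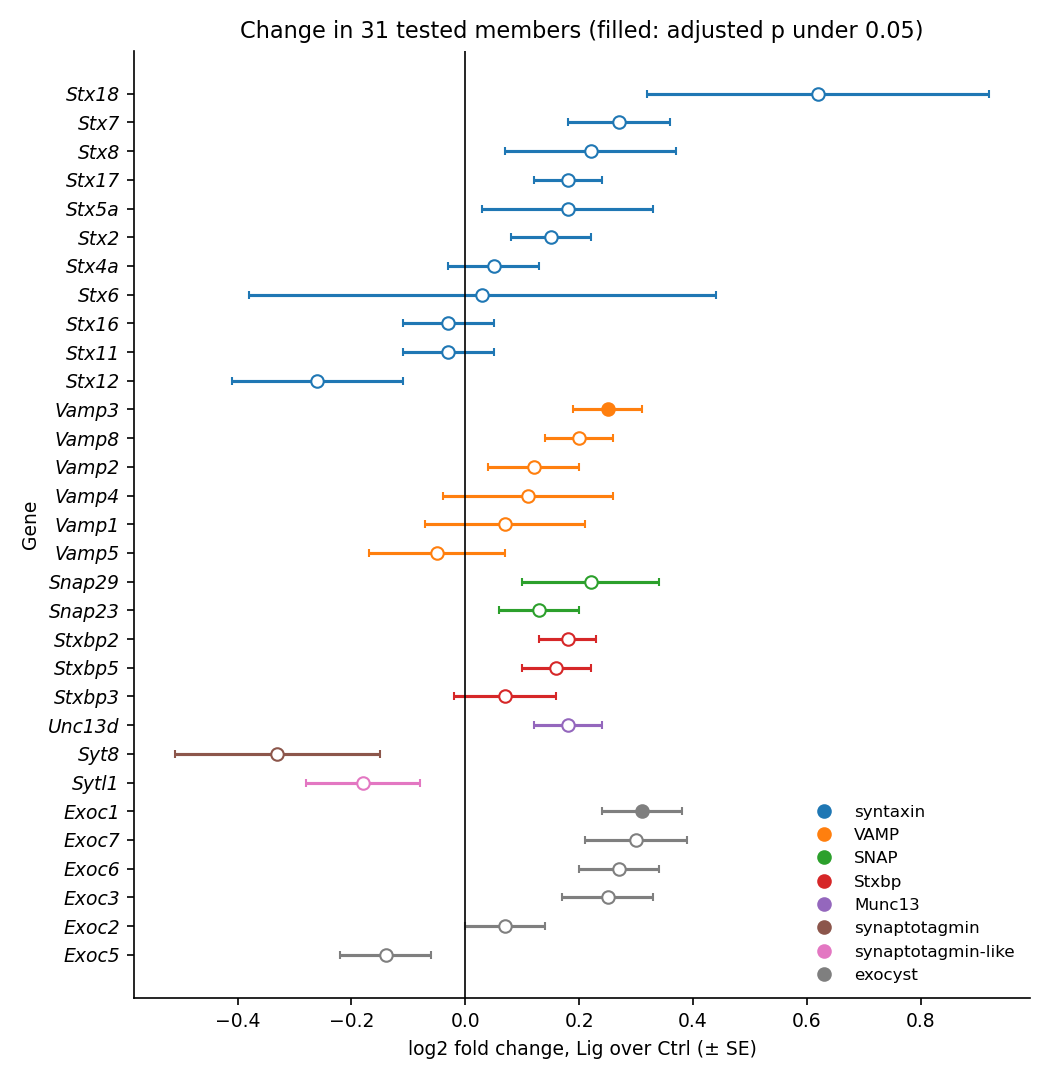
The x axis gives the log2 fold change, Lig over Ctrl, with its SE, for the 31 tested members (y axis), coloured by family and ordered within it, with filled points where the edgeR adjusted p was under 0.05. *Exoc1* and *Vamp3* are filled, 24 points lie right of 0, and *Stx18* and *Stx6* have the widest bars.

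Counted over the whole list, 2 of 31 tested members (6.45%) were called higher in Lig, beside 3.96% of all 9632 genes, and 0 were called lower, beside 6.43%. At an unadjusted p under 0.05, 11 members were higher and 0 lower, beside 1247 and 1497 of all 9632 genes. In 24 of 31 members (77.4%) the fold change was positive, beside 49.8% of all genes, and the median was 0.15, beside a median of -0.001. A further 8 members, all positive, had an adjusted p between 0.05 and 0.10. These were *Exoc6*, *Stxbp2*, *Exoc7*, *Unc13d*, *Stx17*, *Vamp8*, *Stx7* and *Exoc3*. How many of all genes lay in this band was not counted. DESeq2 called 9 of 31 members higher (29%), beside 7.78% of all genes, and 0 lower, beside 10.3%. They were *Exoc1*, *Vamp3* and all of the 8 except *Stx17* (DESeq2 adjusted p = 0.0655). limma on log2(FPKM + 1) called 0 higher and 0 lower, beside 1.71% and 7.26% of all genes. At an unadjusted p under 0.05 it had 3 members higher and 2 lower, beside 678 and 2014 of all 9632 genes. In FPKM the groups did not overlap for 7 members (22.6%) that were higher in Lig, beside 9.9% of all genes, and for 3 (9.68%) that were lower, beside 24.9%.

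These counts moved with the scaling between libraries. TMM, the scaling of edgeR that assumes most genes to be unchanged, lowered the scale of the Lig libraries (factors 0.967 to 0.976, beside 1.01 to 1.05 in Ctrl), so that a fold change from counts lay above the plain ratio of FPKM. With library size alone, 0 members passed, 19 of 31 were positive and the median was 0.07. With FPKM rescaled to 1 common sum in each library (TPM), 0 passed, 16 of 31 were positive and the median was 0.001, while the median of all genes moved to -0.144. The balance of calls over all genes moved likewise, from 381 higher and 619 lower with TMM to 168 and 917 with library size and 97 and 1232 with TPM. The median of the tested members stood above that of all genes by 0.10 to 0.18 in 16 of the 17 fits run, the 6 without 1 library included. In the fit without a filter the 31 members were set against 25107 genes, most of them scarcer, and the gap was 0.24. With the 24 members under the filter added, 18 of which were negative there, the median of these 55 members was 0.09.

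**Figure D4:**
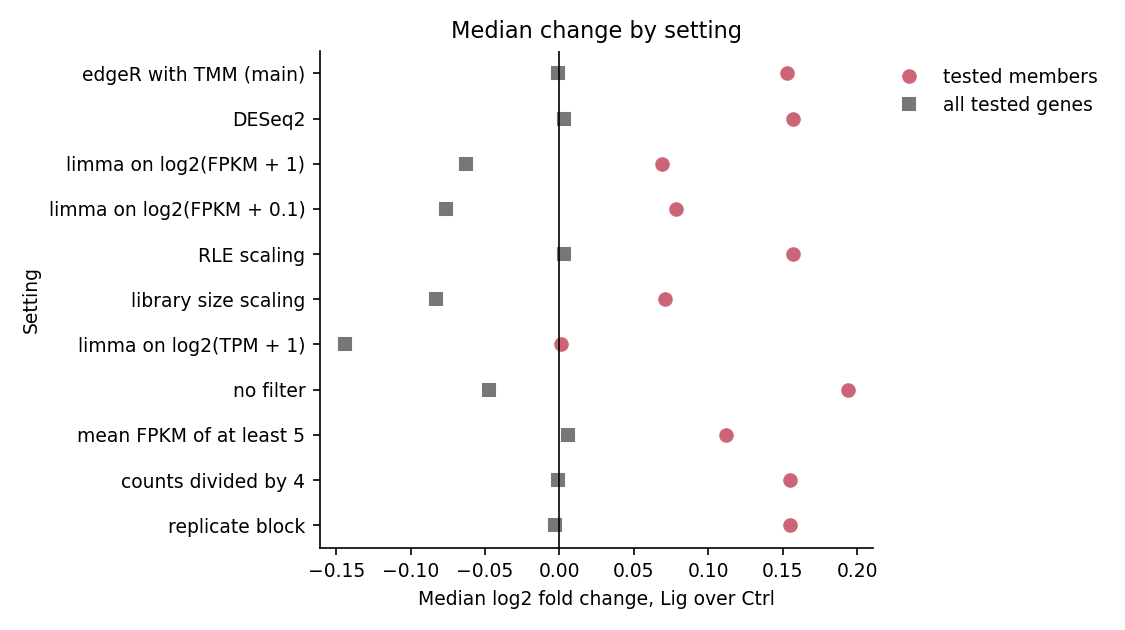
Median log2 fold change of Lig over Ctrl (x axis) under each of 11 settings (y axis), for the tested members (red circles) and for all tested genes (grey squares). The members lie right of all genes in each of these settings, from 0.001 with TPM to 0.194 without a filter, where the red circle still stands for the 31 members of at least 1 FPKM and the grey square for 25107 genes.

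Other genes of the pathway were taken from 3 lists. Of 25 tested partner genes, 4 rose and 1 fell, beside 3.96% and 6.43% of all genes. Of the 4 increases, that of *Sec22c* alone was called in more than 1 of the 6 fits without 1 library. The SNAREs outside the symbol rule held 3 of these increases among 10 tested genes. *Sec22c*, related to a SNARE of the endoplasmic reticulum, rose from 12.6 ± 0.537 to 15.2 ± 0.547 FPKM (SD, n = 3), with 12.90, 11.96 and 12.88 in Ctrl and 14.94, 15.81 and 14.80 in Lig. Its log2 fold change was 0.35 ± 0.06 (edgeR, adjusted p = 0.0145), and it was called in each of the 6 fits without 1 library. The call was lost with TPM and with a replicate block, where 0 partner genes were called higher. *Ykt6*, a SNARE of Golgi and autophagosome traffic, had 32.89, 32.33 and 32.74 FPKM in Ctrl and 42.33, 35.31 and 39.20 in Lig (0.33 ± 0.08, adjusted p = 0.0385). It was called in 1 of the 6 fits without 1 library, that without replicate 2 of Lig. *Vti1a*, a SNARE of endosome to Golgi traffic, rose from 2.27 ± 0.0153 to 2.61 ± 0.107 FPKM (0.27 ± 0.07, adjusted p = 0.0499) and was called in none of those 6 fits.

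Among the factors that dock and prime vesicles, 1 of 9 tested rose and 1 fell. *Rab3d*, a GTPase of secretory granules, had 67.28, 66.43 and 67.55 FPKM in Ctrl and 69.76, 74.96 and 73.58 in Lig (0.19 ± 0.05, adjusted p = 0.0456), a call made in none of the 6 fits without 1 library. *Rab27a*, the GTPase that recruits Munc13-4 and Sytl1, had 53.21, 54.33 and 53.83 FPKM in Ctrl and 55.76, 60.37 and 56.36 in Lig. Its groups did not overlap, and its change of 0.17 ± 0.05 did not pass (adjusted p = 0.0839).

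*Cplx2*, the gene of complexin 2, which binds assembled SNARE bundles, changed most among the tested members and partner genes. It fell from 2.04, 1.84 and 2.07 FPKM in Ctrl to 0.70, 1.04 and 0.86 in Lig, a log2 fold change of -1.12 ± 0.16 (adjusted p = 0.0105). All Lig libraries lay below all Ctrl libraries, and the call was made in each of the 6 fits without 1 library. It was lost with a replicate block, where 0 partner genes passed. Of the 6 tested genes for SNARE disassembly and other Sec1/Munc18 proteins, none passed. *Napa* (alpha-SNAP), which brings the ATPase NSF to spent SNARE bundles, had 47.65, 48.15 and 48.64 FPKM in Ctrl and 44.99, 40.11 and 40.95 in Lig (-0.12 ± 0.06, adjusted p = 0.254), and was called lower only with TPM. *Nsf* itself averaged 2.06 ± 0.0907 FPKM among Ctrl and 2.03 ± 0.177 among Lig libraries.

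Markers of other marrow cells shifted in the same libraries. The neutrophil markers were abundant throughout (6 of 10 higher in Lig, summed FPKM of 83000 to 92000 in Ctrl and 103000 to 113000 in Lig). Most of this sum was *S100a9* (means 45100 against 56800), *Ngp* (17100 against 21100) and *S100a8* (14300 against 18900). *Itgam*, *Ptprc*, *Mmp8* and *Csf3r* were not called, though all 10 fold changes were positive. Of 9 tested erythroid markers all fell, from a summed 1310 to 1760 FPKM in Ctrl to 393 to 504 in Lig, and 7 of 8 B cell markers fell, from 102 to 130 FPKM to 50.9 to 56.9. Of plasma cell markers 2 of 4 tested fell (18.3 to 22.8 against 16.8 to 17.4, with *Tnfrsf17* at 0), and of T and NK cell markers 1 of 4 (15.3 to 17.7 against 10.3 to 13.9). Of stem and progenitor markers 1 of 6 fell, *Myb* (summed FPKM 153 to 168 against 83.4 to 127). Most of that sum was *Mpo* (means 75.4 against 45.8) and *Elane* (46.4 against 30.6). Neither passed with edgeR (adjusted p = 0.0517 and 0.0839) or with limma on log2(FPKM + 1) (0.0554 and 0.0735). With DESeq2 both were called lower (adjusted p = 0.000736 and 0.0123). In neutrophil progenitors of mice with ligatures, the paper reports *Elane*, *Mpo* and *Prtn3* as raised. Here *Mpo* and *Elane* went the other way, lower in Lig without overlap. Why the directions differed was not tested. *Mki67* (16.3 against 13.5, not called), *Cd34* (1.02 against 0.623) and *Flt3* (0.82 against 0.567) were also lower in Lig without overlap, with *Cd34* and *Flt3* under the filter. The groups overlapped for *Kit* (2.32 against 2.11) and *Prtn3* (11.5 against 11.7). Of 6 tested monocyte and macrophage markers 1 fell, *F13a1*. The sum of this list (160 to 168 against 146 to 171) was mostly *Ly6c2*, with means of 118 in Ctrl and 128 in Lig. *Csf1r*, *Adgre1*, *F13a1*, *C1qa* and *Ms4a6c* were lower in Lig without overlap, and *Ly6c2* alone of the 6 had a positive fold change. Markers of eosinophils, basophils and mast cells (154 to 238 against 89.8 to 233) and of megakaryocytes and platelets (20 to 22.3 against 16.9 to 19.6) held no called gene. Several of these cells also use this machinery, and the part of other cells in the values of the members and of *Cplx2* was not tested. In such pooled samples, fewer cells of a type and less RNA per cell cannot be told apart.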

How the data were processed

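The table deposited by the authors held FPKM and expected counts per gene for 3 Ctrl and 3 Lig libraries. Per the labels, cutadapt 1.9 and FastQC were used on the reads and the build was GRCm38. For the quantification program and strandedness nothing is given in the sources used here. All deposited expected counts were whole numbers, 50605309 to 61455112 per library. Of values from 1 to 16, 40.2% to 41.3% were multiples of 4 and the rest were not. About 4 counts may stand for 1 read pair, which was not tested, and depth in pairs is uncertain. Each library pooled 5 mice, and p-values measure the spread between pools. Members and gene lists were chosen with earlier results of these data known.

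Genes with a mean of at least 1 FPKM (9632) were tested with edgeR 4.0.16 in R 4.3.3 (TMM, quasi-likelihood, 1 group coefficient, Benjamini-Hochberg threshold 0.05, 2-sided); the SE is the log2 fold change divided by the root of the F statistic. limma 3.58.1 (log2 of FPKM plus 1 or 0.1, or of TPM plus 1) and DESeq2 1.42.0 were alternatives, with other scalings, filters, counts divided by 4, a replicate block and leaving out each library. The edgeR, limma and DESeq2 fits were tested on simulated data. Correlation across genes of log2(FPKM + 1) was 0.9771 to 0.9841 within and 0.9707 to 0.9756 between groups. Every tested member was named, and library values were given for called members, the 12 most abundant and others chosen after their values were seen, as were *Stx1a* and *Exoc3l4*. Of partner genes, those called and *Nsf*, *Napa* and *Rab27a* were named. Some members under the filter are not reported here.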

Additional observations from a re-analysis of the deposited data

How the results depend on the processing

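With DESeq2, 1743 of all genes passed in place of 1000, and with a mean of at least 5 FPKM 604 did. Among members, 9 passed with DESeq2 in place of 2, and 0 passed with limma on log2(FPKM + 1), log2(FPKM + 0.1) or log2(TPM + 1), with library size scaling, without a filter or with a mean of at least 5 FPKM, which leaves out *Exoc1*. Among partner genes, 2 passed in place of 5 with each of the 3 limma fits, with library size scaling and without a filter, and 1 with a mean of at least 5 FPKM, which leaves out *Cplx2*. With TPM these 2 were both lower, while in the other fits with 2 calls 1 was higher and 1 lower. RLE scaling and counts divided by 4 left the 3 counts within 1.5 times their value. Leaving out 1 library gave 278 (without replicate 3 of Lig) to 694 (without replicate 2 of Ctrl) of all genes, 0 to 1 members and 2 to 3 partner genes. Without replicate 2 of Ctrl the 1 member was *Vamp3*, and without replicate 1 of Lig it was *Exoc6*. With a replicate block 54 of all genes, 0 members and 0 partner genes passed. Deviations of same-numbered libraries correlated at -0.096 to 0.039, and those of unlike numbers at -0.066 to 0.125. With 3 libraries per group, this cannot show whether the numbers pair the libraries.

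Among the tested members, the called partner genes and *Nsf*, *Napa* and *Rab27a*, reversals of sign were seen in genes that passed in none of these fits. With limma on log2(FPKM + 1), the log2 fold change was -0.029 for *Stx4a*, -0.005 for *Stxbp3*, -0.001 for *Vamp1*, -0.026 for *Stx6* and -0.012 for *Nsf*. With 0.1 in place of 1 it was -0.031 for *Stx4a*, -0.006 for *Stxbp3*, -0.058 for *Stx6* and -0.018 for *Nsf*. With library size scaling it was -0.035 for *Stx4a*, -0.006 for *Exoc2*, -0.011 for *Stxbp3*, -0.010 for *Vamp1*, -0.042 for *Stx6* and -0.023 for *Nsf*. With TPM it was -0.022 for *Snap23*, -0.031 for *Vamp2*, -0.11 for *Stx4a*, -0.074 for *Exoc2*, -0.058 for *Vamp4*, -0.076 for *Stxbp3*, -0.060 for *Vamp1*, -0.10 for *Stx6* and -0.083 for *Nsf*. Without a filter it was 0.013 for *Stx11* and 0.012 for *Stx16*. Leaving out 1 library gave -0.10 to 0.036 for *Stx11*, -0.026 to 0.094 for *Stx4a*, -0.092 to 0.030 for *Stx16*, -0.023 to 0.25 for *Vamp4*, -0.098 to 0.064 for *Vamp5*, -0.064 to 0.14 for *Vamp1* and -0.25 to 0.35 for *Stx6*. Why the fits differed was not tested.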
